A study of Homo sapiens with 6 samples.

Results

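Of the 38557 gene symbols counted, 40 carry the name of a voltage-gated sodium or calcium channel subunit, including subunits best known from other tissues. Members were chosen by symbol alone: SCN with a number and A or B, CACNA1 with a letter, CACNA2D1 to CACNA2D4, CACNB1 to CACNB4 and CACNG1 to CACNG8. They comprised 14 sodium channel genes, of which 10 encode the pore-forming alpha subunit and 4 the accessory beta subunit. The other 26 were calcium channel genes, with 10 for the pore-forming alpha1 subunit, 4 for alpha2delta, 4 for beta and 8 for gamma.

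The cells were cardiomyocytes differentiated from an established line of human induced pluripotent stem cells, WTC11, and their cell type label is WT. Of 6 cultures, 3 were kept in RPMI plus B27 (RPMI from here on) and 3 in DMEM plus fatty acids (DMEM from here on), and the labels number the biological replicates 1 to 3 within each medium. All libraries come from the same line, the labels name no genetic change or further agent, and what the media contained and how long the cells were in them is not given. Nothing in the labels says whether the replicates came from separate differentiations, so p-values measure only the spread between these libraries.

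In the heart, sodium channels open first and carry the upstroke of the action potential, and L-type calcium channels then hold the plateau and trigger calcium release from the sarcoplasmic reticulum. T-type calcium channels open at more negative voltages and are known from pacemaking cells and the fetal heart. Alpha2delta and beta subunits carry calcium channels to the membrane and tune their gating, and sodium channel beta subunits do likewise for sodium channels.

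Each library held 23232324 to 31035389 gene counts. Levels are given as CPM, gene counts divided by the library's total and set to a common scale by TMM, and values in threes are in the order of replicates 1 to 3. A count of 0 allowed a level of up to 0.0889 to 0.129 CPM, depending on the library (3 counts, counting error only). Across the 16107 genes tested with edgeR, 219 passed an adjusted p of 0.05 between media, 47 higher and 172 lower in DMEM, or 74 and 128 with scaling by total counts. That is 1.36% of the genes tested. Same-numbered libraries deviated together, so a fit that includes the replicate number (a replicate block) is quoted where it changes a call, and in that fit 770 genes, or 4.78%, passed. Summed CPM of 11 cardiomyocyte markers was 27495 to 33326 in RPMI and 21830 to 31294 in DMEM. The sum of 10 fibroblast and stromal markers was 4333 to 8391 in RPMI and 733 to 1943 in DMEM, and 6 of the 10 fell by edgeR. Sums of 6 smooth muscle markers (1604 to 2040 against 357 to 1176 CPM) and of 7 epicardial markers (1356 to 1643 against 626 to 705 CPM) were also without overlap, with 1 gene called lower in each list. Of the epicardial markers WT1, UPK3B, UPK1B and ALDH1A2 were below 1 CPM in every library. That sum therefore came almost wholly from TBX18, KRT8 and KRT19, and it does not establish that epicardial cells were present. In bulk RNA, fewer cells of a type and less RNA per cell cannot be told apart, and the part of these shifts in any channel difference below was not tested.

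Of the 40 genes, 29 passed the filter on low counts, and 33 had a count in every library. The change between media passed the test for 1 of the 29, CACNA2D2, which was higher in DMEM. With the replicate block 2 passed, CACNA2D2 and CACNB1, the second of them lower in DMEM. DESeq2 passed CACNA2D2 and SCN2B, against 7.52% of all genes tested. At an unadjusted p of 0.05, 6 of the 29 passed, 4 higher and 2 lower, where 17.7% of all genes did. The libraries of the media did not overlap for 5 of the 29, namely CACNA2D2, CACNA2D3, CACNB2, SCN2B and SCN9A, all with the higher values in DMEM. Of all genes tested, 25.6% were without overlap when both directions are counted, 2059 higher and 2061 lower in DMEM. Counted over both directions, these shares lie close to those of all genes. The median log2 fold change (DMEM over RPMI) was 0.21 over the 29 members, 0.45 over the 11 sodium and 0.03 over the 18 calcium channel genes, and 0.01 over all genes.

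**Figure D1:**
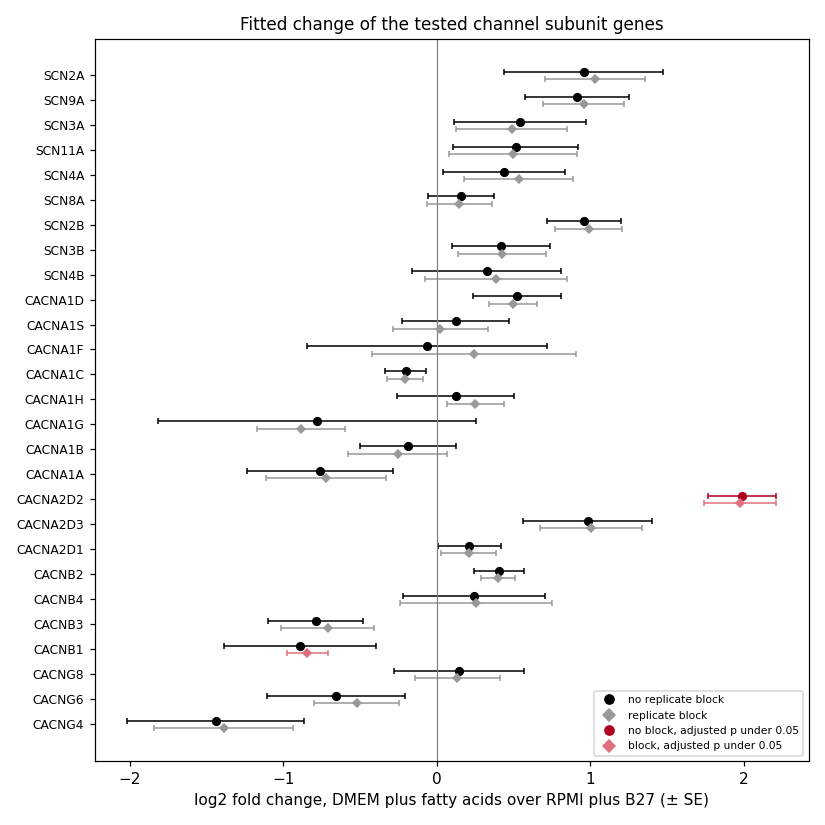
Log2 fold change (x axis, DMEM over RPMI) of 27 tested channel genes (y axis), with bars of 1 SE, from the fit without (circles) and with (diamonds) the replicate block; red marks an adjusted p under 0.05. CACNA2D2, at 1.99, is the only gene marked in both fits, and CACNB1 is marked with the block only.

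CACNA2D2 encodes an alpha2delta subunit, an extracellular protein that binds the gabapentinoid drugs, as its relative CACNA2D1 does. The gene lies on the minus strand at chr3:50362799-50504244 of GRCh38. RefSeq gives it more than 1 start site, and the 250 bases before 2 of them are shown because this is the subunit whose RNA differed between media. Capitals mark GC boxes (GGGCGG, searched on both strands), the sequence that factors of the SP family bind. Both are written 5′ to 3′ on the gene's strand, from RefSeq's GRCh38.p14 promoters.
CACNA2D2 outer start, chr3:50504245-50504494, minus strand: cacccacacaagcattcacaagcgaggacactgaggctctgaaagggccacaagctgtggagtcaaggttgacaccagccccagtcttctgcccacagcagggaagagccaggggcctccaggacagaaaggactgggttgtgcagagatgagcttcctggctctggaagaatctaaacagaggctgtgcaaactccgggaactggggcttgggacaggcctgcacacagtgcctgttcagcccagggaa
CACNA2D2 inner start, chr3:50503635-50503884, minus strand: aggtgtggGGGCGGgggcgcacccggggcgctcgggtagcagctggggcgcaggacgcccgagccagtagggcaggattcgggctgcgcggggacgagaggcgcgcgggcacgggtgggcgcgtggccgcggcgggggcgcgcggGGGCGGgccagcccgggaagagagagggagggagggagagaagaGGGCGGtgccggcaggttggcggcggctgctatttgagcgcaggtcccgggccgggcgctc
The outer window had a GC content of 58% and no GC box, and the inner window 78.8% and 3 GC boxes. A GC box was found in 42.6% of all 35116 RefSeq windows of this length. Neither window held the ACGTG form of the HIF core, the TATA box TATAAA, the nuclear receptor half-site AGGTCA or the GATA motif AGATAA on either strand, where 9.17% to 18.5% of all windows held a match to each. The GCGTG form of the HIF core was not searched for, and it occurs in the inner window. The counts were per gene and do not say which start was used.

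CACNA2D2 had 6.86, 9.62 and 8.50 CPM in RPMI and 41.2, 26.3 and 31.7 CPM in DMEM. Every library in DMEM lay above every library in RPMI, and the means were 8.33 ± 1.39 and 33.1 ± 7.58 CPM (SD, n = 3 each). The level rose 3.97-fold, a log2 fold change of 1.99 ± 0.22 (SE, adjusted p = 0.0242 by edgeR), and with the replicate block the change was 1.98 ± 0.23 (adjusted p = 0.0166). Between 182 and 1070 reads per library stood behind these values. With any single library left out the log2 fold change stayed at 1.80 to 2.13, but the call held only without RPMI replicate 3 (adjusted p = 0.0418). Without each of the other 5 libraries the adjusted p was 0.0537 to 0.0848. Exon bases shared with CYB561D2 and Z84492.1 on the opposite strand made up 9.59% of the gene's exons, and the strand setting of the counting is not given in the sources used here. CYB561D2 itself had a log2 fold change of 0.37 ± 0.23 (adjusted p = 0.445).

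CACNA2D1 encodes the alpha2delta subunit known as the main cardiac form. It had 57.7, 87.0 and 76.7 CPM in RPMI and 93.7, 97.1 and 65.3 CPM in DMEM. The media overlapped, with a log2 fold change of 0.21 ± 0.21 (adjusted p = 0.638). CACNA2D3 was near the detection limit at 0.527, 0.936 and 0.410 CPM against 0.947, 1.64 and 1.10 CPM. Its libraries did not overlap, by a margin of 11 to 22 reads against 22 to 49, and its log2 fold change of 0.98 ± 0.42 did not pass (adjusted p = 0.283). CACNA2D4, known from the retina, had 8 reads in all 6 libraries together.

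Per kilobase of transcript, which allows levels of different genes to be compared, the alpha2delta genes summed to 9.10, 13.6 and 11.9 CPM per kb in RPMI and to 20.6, 18.3 and 15.03 CPM per kb in DMEM. CACNA2D1 made up 83.9%, 84.4% and 85.3% of that sum in RPMI and 60.2%, 70.0% and 57.5% in DMEM. CACNA2D2 made up 13.6% to 14.5% in the first medium and 27.5% to 40.5% in the second. The log2 ratio of CACNA2D1 to the other alpha2delta genes was 2.45 ± 0.08 (SD, n = 3) in RPMI and 0.75 ± 0.42 in DMEM, a difference of -1.70. The groups did not overlap, and the exact two-sided permutation p was 0.1, the smallest that 3 against 3 libraries allow. Within pairs the difference was negative in all 3 (exact sign-flip p = 0.25, the smallest that 3 pairs allow). Of 5 such ratios computed, this and the ratio of CACNB2 to the other beta genes had an adjusted p of 0.25 (Benjamini-Hochberg, exact permutation), and none passed. The CACNA2D1 ratio repeats the CACNA2D2 difference on another scale.

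**Figure D2:**
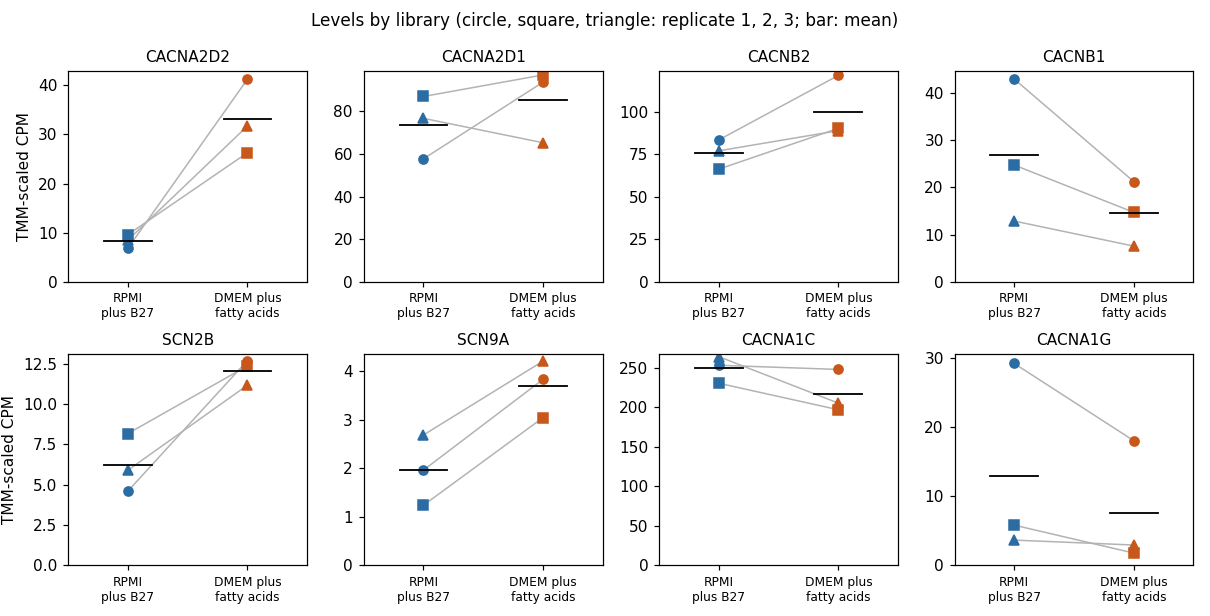
TMM-scaled CPM (y axis, from 0) of 8 channel genes in each library of each medium (x axis), with lines joining the same replicate number and bars at the means of 3 libraries. The CACNA2D2, CACNB2, SCN2B and SCN9A libraries in DMEM lie above all of those in RPMI. CACNB1, CACNA1C and CACNA1G are lower in DMEM within each pair, and CACNA1G is highest in the replicate 1 libraries of both media.

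The beta subunits bind the inside of the alpha1 subunit and promote its transport to the membrane, and CACNB2 is known as the main cardiac form. CACNB2 had 83.4, 66.2 and 77.0 CPM in RPMI and 121, 90.2 and 88.8 CPM in DMEM. Its libraries did not overlap between media, and its log2 fold change was 0.41 ± 0.16 (adjusted p = 0.25, and 0.0984 with the block). CACNB1, best known from skeletal muscle, had 42.9, 24.7 and 12.9 CPM in RPMI and 21.2, 14.7 and 7.56 CPM in DMEM. The media overlapped widely, yet DMEM was the lower medium in each of the 3 pairs. Without the block the log2 fold change was -0.89 ± 0.49 (adjusted p = 0.396). With the block CACNB1 fell by 0.85 ± 0.13 on the log2 scale (adjusted p = 0.0286), the only subunit gene whose call the block changed.

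CACNB3, a form widely expressed outside muscle, had 58.1, 33.1 and 25.7 CPM in RPMI and 18.2, 26.8 and 22.7 CPM in DMEM. The highest library was RPMI replicate 1, and the log2 fold change was -0.79 ± 0.31 (adjusted p = 0.246). That library also had the highest sums of cardiomyocyte, fibroblast and stromal, smooth muscle and skeletal muscle markers. CACNB4, known from the brain, stayed between 0.261 and 0.711 CPM. Per kilobase, CACNB2 made up 44.3%, 52.5% and 65.2% of the beta genes in RPMI and 75.4%, 67.2% and 72.7% in DMEM. The log2 ratio of CACNB2 to the other beta genes was 0.24 ± 0.62 (SD, n = 3) and 1.35 ± 0.30, a difference of 1.11. The groups did not overlap (exact permutation p = 0.1), and the 3 pairs differed by 1.95, 0.89 and 0.51. Summed over the beta genes, the media overlapped, at 37.4 to 59.6 CPM per kb in RPMI and 38.7 to 50.9 in DMEM.

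**Figure D3:**
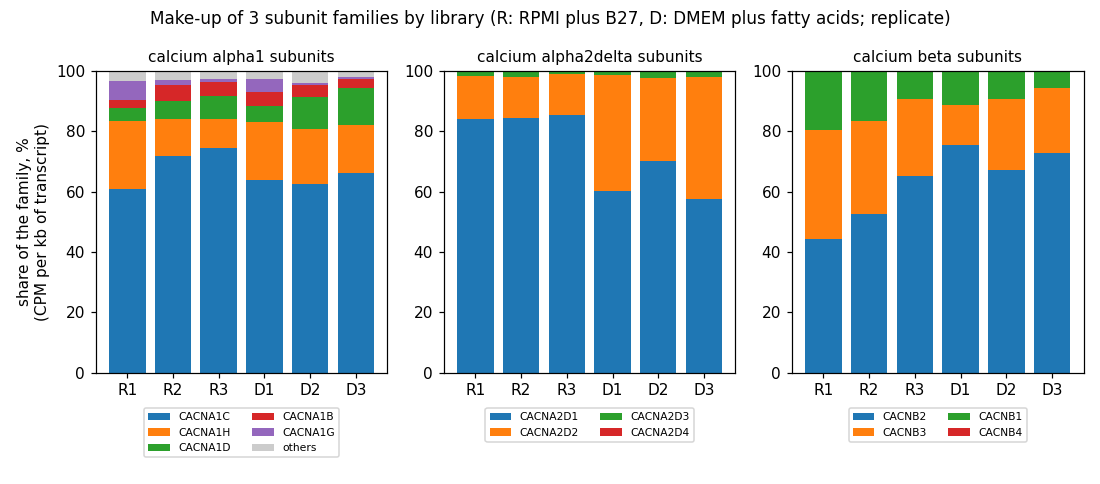
Share (y axis, percent of the family's CPM per kb of transcript) of each gene in 3 calcium channel subunit families, in each of the 6 libraries (x axis; R for RPMI and D for DMEM, with the replicate number). CACNA2D2 takes 13.6% to 14.5% of the alpha2delta bars in RPMI and 27.5% to 40.5% in DMEM, while CACNA1C leads its family in every library.

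CACNA1C encodes the pore of the main cardiac L-type channel, and 5417 to 7086 reads per library stood behind its values. It had 253, 230 and 264 CPM in RPMI and 248, 197 and 205 CPM in DMEM. The media overlapped and the pairs were lower in DMEM in 3 of 3, with a log2 fold change of -0.20 ± 0.13 that did not pass (adjusted p = 0.473). CACNA1D, the L-type pore known from the sinoatrial node and atrium, had 23.5, 25.6 and 37.3 CPM against 26.2, 46.1 and 51.8 CPM. It was higher in DMEM in each pair, by 0.52 ± 0.29 on the log2 scale (adjusted p = 0.389, and 0.129 with the block). The log2 ratio of CACNA1C to CACNA1D was 3.58 ± 0.30 (SD, n = 3) in RPMI and 2.87 ± 0.70 in DMEM, a difference that did not pass (exact permutation p = 0.3).

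The other L-type pores are known from other tissues. CACNA1S, the voltage sensor of skeletal muscle, was detected at 4.09 to 10.8 CPM with overlapping media and a log2 fold change of 0.12 ± 0.35 (adjusted p = 0.886). The 7 skeletal muscle markers summed to 1.45 to 11.4 CPM in RPMI, highest in replicate 1, and to 2.41 to 2.67 CPM in DMEM. Of them 2 reached 1 CPM in a library, and MYOD1, MYF5, PAX7 and MYH8 had no count in any. The retinal CACNA1F stayed under 1 CPM, at 0.0373 to 0.791.

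Among T-type pores, CACNA1H was the highest per kilobase in every library and had 116, 49.5 and 41.7 CPM in RPMI and 93.4, 70.9 and 60.8 CPM in DMEM. Replicate 1 was the highest in both media, and the fold change between media was 0.12 ± 0.38 on the log2 scale (adjusted p = 0.896). CACNA1G, which contributes to pacemaking in the sinoatrial node, had 29.2, 5.79 and 3.62 CPM in RPMI and 18.0, 1.74 and 2.91 CPM in DMEM. It was lower in DMEM in each pair. The log2 fold change was -0.78 ± 1.04 without the block (adjusted p = 0.738) and -0.89 ± 0.29 with it (adjusted p = 0.137). In the fit without the block the sign depended on RPMI replicate 1, without which the value was 0.67. CACNA1I, known from the brain, had 3.62, 1.79 and 0.186 CPM in RPMI and 0.215, 0.234 and 0.148 CPM in DMEM. It did not pass the filter, and without the filter its log2 fold change was -3.18 ± 0.81 (adjusted p = 0.0758). RPMI replicate 3 had 5 reads, no more than the 5 to 7 reads of the DMEM libraries. Leaving out a library let CACNA1I pass the filter in 4 fits, and it was called only without RPMI replicate 3 (log2 fold change -3.75, adjusted p = 0.0416). Without DMEM replicate 1, 2 or 3 the adjusted p was 0.267 to 0.333.

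Summed per kilobase, L-type over T-type alpha1 RNA gave log2 ratios of 1.204, 2.47 and 3.02 in RPMI and 1.60, 2.04 and 2.26 in DMEM. L-type RNA was the larger in every library at these lengths, and the media overlapped (difference -0.26, exact permutation p = 0.7). The sign of this difference turned to 0.13 without RPMI replicate 3. With the union of annotated exons the ratio in RPMI replicate 1 was -0.09, so T-type RNA was then the larger in that library, and the other 5 libraries lay between 0.31 and 1.69.

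The remaining alpha1 genes encode neuronal P/Q-, N- and R-type pores. CACNA1B, the N-type pore, was well above the floor at 17.1, 25.4 and 24.3 CPM against 28.3, 18.1 and 12.2 CPM, with 413 to 658 reads per library. Its media overlapped (log2 fold change -0.19 ± 0.31, adjusted p = 0.793). The 12 neuronal and neural crest markers summed to 22.8 to 38.1 CPM in RPMI and 21.6 to 34.9 CPM in DMEM, with 5 reaching 1 CPM in a library and 7, STMN2, ELAVL3 and ELAVL4 among them, below it in all. Their part in the neuronal channel RNA was not tested. CACNA1A, the P/Q-type pore, had 3.24, 1.15 and 2.39 CPM against 0.990, 0.970 and 2.02 CPM (log2 fold change -0.76 ± 0.48, adjusted p = 0.449). CACNA1E, the R-type pore, had 8 reads in total.

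Set per kilobase of the principal transcript, CACNA1C made up 61.0% to 74.4% of alpha1 RNA, CACNA1H 9.52% to 22.5%, CACNA1D 4.18% to 12.4%, CACNA1B 2.68% to 5.38% and CACNA1G 0.480% to 6.12%. CACNA1H lay above CACNA1D in each library, whereas the ranges of CACNA1D, CACNA1B and CACNA1G overlapped. These shares depend on the transcript length used. With the union of all annotated exons, a choice added after seeing the data, CACNA1C made up 38.6% to 56.3% and CACNA1H 19.7% to 39.1%, so the lead of CACNA1C over CACNA1H rests on the length in the library where they met, RPMI replicate 1.

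**Figure D4:**
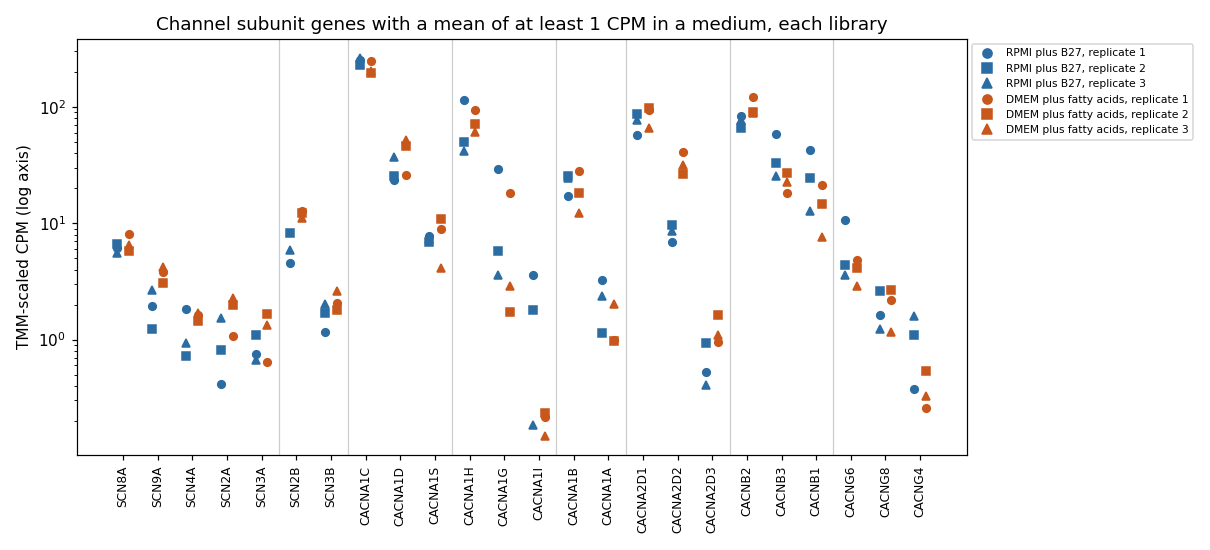
TMM-scaled CPM (y axis, log scale) of 24 channel genes whose mean reached 1 CPM in either medium, with 1 point per library (blue for RPMI, orange for DMEM; circle, square and triangle for replicates 1, 2 and 3) and grey lines between subunit classes. CACNA1C lies between 197 and 264 CPM, and CACNA1G and CACNA1I span the widest ranges among the T-type genes.

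The sodium channel pore genes described here were under 10 CPM in each library. SCN8A, the pore of the nodes of Ranvier that is also found in cardiomyocytes, had 6.10, 6.68 and 5.52 CPM against 8.05, 5.79 and 6.55 CPM (log2 fold change 0.15 ± 0.21, adjusted p = 0.752). SCN9A, the pore known from pain-sensing neurons, had 1.96, 1.23 and 2.69 CPM against 3.83, 3.04 and 4.21 CPM. Its media did not overlap, and its log2 fold change of 0.91 ± 0.34 passed neither without nor with the block (adjusted p = 0.225 and 0.0987). SCN2A, a pore of brain neurons, had 0.414, 0.808 and 1.53 CPM against 1.08, 1.97 and 2.28 CPM. It was higher in DMEM within each pair although the media overlapped (log2 fold change 0.96 ± 0.52, adjusted p = 0.385). SCN3A, known from the fetal brain, ranged from 0.646 to 1.67 CPM, and SCN4A, the skeletal muscle pore, from 0.723 to 1.85 CPM. Neither passed, with log2 fold changes of 0.54 ± 0.43 and 0.44 ± 0.40. SCN1A, SCN7A, SCN10A and SCN11A stayed under 1 CPM, and SCN10A had 3 reads in total.

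Beta subunits of sodium channels are single-pass membrane proteins that modulate gating and adhesion, and SCN2B and SCN4B are the members linked to the pore by a disulfide bond. SCN2B had 4.60, 8.17 and 5.89 CPM in RPMI and 12.7, 12.4 and 11.2 CPM in DMEM. The media did not overlap, and the level in DMEM was 1.94-fold that in RPMI. This log2 fold change of 0.96 ± 0.24 did not pass by edgeR (adjusted p = 0.109, and 0.0617 with the block) but passed by DESeq2 (adjusted p = 0.00821). SCN3B had 1.17, 1.70 and 2.01 CPM against 2.07, 1.81 and 2.64 CPM (0.42 ± 0.32, adjusted p = 0.540). SCN4B, an accessory subunit of the heart and brain, stayed at 0.336 to 1.21 CPM. The values of SCN3B and SCN4B lay above 0 by less than 2 SE.

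The gamma genes comprise CACNG1, the subunit of the skeletal muscle calcium channel, its relative CACNG6, and 6 genes whose products are better known as AMPA receptor auxiliary proteins. CACNG6, the highest of them per kilobase, had 10.7, 4.34 and 3.62 CPM against 4.87, 4.15 and 2.88 CPM. It was lower in DMEM in each pair, with a log2 fold change of -0.66 ± 0.45 that did not pass (adjusted p = 0.492). Without RPMI replicate 1 the value was -0.0097. CACNG4 had 0.377, 1.11 and 1.60 CPM against 0.258, 0.535 and 0.326 CPM (-1.44 ± 0.58, adjusted p = 0.256). It had the most negative value of the 29 members, from 6 to 43 reads per library. CACNG8 ranged from 1.16 to 2.68 CPM in overlapping media (0.15 ± 0.42). CACNG7 did not pass the filter and had 34, 8 and 3 reads in RPMI against 1, 0 and 2 in DMEM. CACNG1 and CACNG2 had no read in any library, CACNG5 had 1 read and CACNG3 had 7.

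Some members are neighbours in the genome (GRCh38, GENCODE annotation). SCN3A, SCN2A, SCN1A, SCN9A and SCN7A lie within chr2:165087522-166494326, and the tested 3 of them, SCN3A, SCN2A and SCN9A, had log2 fold changes of 0.54 to 0.96. SCN2B and SCN4B are adjacent on chromosome 11, with log2 fold changes of 0.96 ± 0.24 and 0.32 ± 0.49. CACNG7, CACNG8 and CACNG6 lie within chr19:53909335-54012669, with log2 fold changes of 0.15 ± 0.42 for CACNG8 and -0.66 ± 0.45 for CACNG6, and CACNG7 not tested.

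The blocked fit also allowed a test between replicate numbers 1, 2 and 3, which was chosen after seeing the data. In it 2 channel genes passed, CACNA1G and CACNB1, where 0.844% of all genes tested did. CACNA1G was at least 18.0 CPM in the replicate 1 libraries and at most 5.79 CPM in all others, with log2 differences of -2.78 and -2.81 for replicates 2 and 3 against 1 (adjusted p = 0.0423 by edgeR). CACNB1 differed by -0.67 and -1.62 (adjusted p = 0.0439). Its replicate 1 libraries were not set apart, with 21.2 CPM in DMEM replicate 1 and up to 24.7 CPM in the others. The sum of 6 endothelial markers split the libraries as CACNA1G did but in the opposite direction. It was 54.8 and 119 CPM in replicate 1 and 155 to 471 CPM in the others. Of these markers PECAM1, CDH5 and VWF were below 1 CPM in every library, so the sum came almost wholly from KDR, TEK and EGFL7. Between media the 3 tested markers did not move together, with log2 fold changes from -2.13 to 1.26, 1 above and 2 below 0. The part of this sum in the CACNA1G and CACNB1 differences was not tested. What the replicate numbers stand for is not given in the labels.

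Proteins that anchor or regulate these channels were examined as 2 lists, 14 partners of sodium channels and 18 of calcium channels. Of the 32 genes, 28 were tested. None passed edgeR without the block (1.36% of all genes) and 1 passed with it (4.78%). At an unadjusted p of 0.05, 9 of the 28 passed, against 17.7% of all genes. They were 7 of the 13 tested sodium channel partners (3 higher, 4 lower) and 2 of the 15 tested calcium channel partners (1 higher, 1 lower). The media did not overlap for 7 of the 13 and 2 of the 15, against 25.6% of all genes in either direction. By DESeq2 4 of the 28 passed, against 7.52% of all genes. The median log2 fold change was 0.07 over the 13 tested sodium channel partners and -0.16 over the 15 tested calcium channel partners.

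Among sodium channel partners, ANK3, the ankyrin that anchors channels in excitable membranes, had 183, 206 and 193 CPM in RPMI and 301, 296 and 238 CPM in DMEM. The media did not overlap (log2 fold change 0.52 ± 0.13, adjusted p = 0.114 by edgeR and 0.0261 by DESeq2). GPD1L, a protein that modulates the cardiac sodium current, was likewise without overlap, at 25.1 to 33.8 against 39.1 to 45.6 CPM (0.48 ± 0.15, adjusted p = 0.172). FGF11, of the fibroblast growth factor homologous factors that bind the tail of sodium channels, had 160, 71.5 and 47.7 CPM against 39.0, 27.99 and 32.1 CPM. It passed by DESeq2 alone (adjusted p = 0.00748), and its edgeR log2 fold change was -1.49 ± 0.42 (adjusted p = 0.135), or -0.85 without RPMI replicate 1. CAV3, the muscle caveolin, was at 0.746 to 1.88 against 0.0593 to 0.401 CPM (-2.35 ± 0.65, adjusted p = 0.132 by edgeR and 0.0351 by DESeq2). The DMEM values of CAV3 rest on few reads. That of DMEM replicate 3, 0.0593 CPM, lay below the 0.0889 CPM that a count of 0 allows there.

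Among calcium channel partners, RRAD encodes a small GTPase that inhibits L-type channels through their beta subunit. It had 393, 224 and 50.7 CPM in RPMI and 134, 93.8 and 20.9 CPM in DMEM. Its values spread widely within each medium but were lower in DMEM in every pair. The log2 fold change was -1.42 ± 0.81 without the block (adjusted p = 0.409) and -1.36 ± 0.11 with it (adjusted p = 0.0081). REM2, of the same GTPase family, was at 0.237 to 1.73 CPM and did not pass (-1.45 ± 0.69, adjusted p = 0.328). AKAP7, which tethers protein kinase A to the L-type channel, had 8.40, 11.9 and 11.2 CPM against 15.4, 20.2 and 16.3 CPM (0.72 ± 0.20, adjusted p = 0.135 by edgeR and 0.0304 by DESeq2). JPH2, the junctophilin that holds L-type channels opposite the sarcoplasmic reticulum, was at 380 to 402 CPM against 316, 304 and 166 CPM (-0.57 ± 0.24, adjusted p = 0.272). Without DMEM replicate 3 the JPH2 log2 fold change was -0.32. STAC, an adaptor that slows inactivation of L-type channels, overlapped between media at 3.99 to 7.84 and 1.16 to 4.68 CPM (-0.97 ± 0.50, adjusted p = 0.361).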

How the data were processed

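Gene expression was measured by stranded mRNA sequencing in 6 libraries, 3 per medium. The authors deposited unnormalized counts for each gene symbol, 1 table per library, and the submitters' processing notes name STAR, HTSeq and hg38 without versions. Annotation and strand setting are not given in the sources used here. Summary rows were left out, and gene rows held 84.4% to 87.2% of each library's counts.

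Counts were filtered (filterByExpr, minimum count 10, minimum total 15), scaled by TMM and tested over all 16107 genes with edgeR 4.0.16 (quasi-likelihood, R 4.3.3), with Benjamini-Hochberg adjustment at 0.05. The standard error is the log2 fold change over the root of F. The coefficient of biological variation was 25.6% and 18.2% with the replicate block. Deviations of same-numbered libraries from their medium's mean correlated at 0.313, 0.428 and 0.365 across genes, so the numbers were taken to pair the libraries. Those of other pairs correlated at -0.242 to -0.136. The deviations within a medium sum to 0 for each gene, so these negative values are not separate evidence. The pairing was thus read from the same counts that the blocked fit tests, and that fit has 2 residual degrees of freedom. No 2 libraries agreed within sampling noise (chi-square per degree of freedom 31.6 or more).

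Levels per kilobase used the APPRIS principal transcript of the GENCODE annotation (GRCh38), which may differ from the authors' annotation. Ratios were tested by exact two-sided permutation. Promoter windows are RefSeq's and matched 26 of the 40 symbols. Named genes are the 26 members whose mean reached 1 CPM in either medium or that had an adjusted p under 0.05, and partners called or with the smallest p of their list, up to 4. Other members are described by their range or counts. Results of 2 members, and 1 of the 5 ratios, are not reported here, though counts and medians over all members include them. Members and lists were chosen with earlier results of these data known. Alternatives were size factors (RLE), total counts, DESeq2 1.42.0, other filters, the replicate block and each library left out. The fitting code was tested on simulated data.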

Additional observations from a re-analysis of the deposited data

How the results depend on the processing

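Channel genes passing the test numbered 1 in the edgeR fit and under RLE size factors, total counts, no filter and a filter of 10 counts in every library. They numbered 2 by DESeq2 and 2 with the replicate block, and 0 to 2 with a library left out. Over all genes, 1212 passed by DESeq2, 539 without a filter, 119 with the stricter filter, 770 with the replicate block and 3 to 131 with a library left out. Partner genes passing numbered 4 by DESeq2 and 1 with the replicate block. Between replicate numbers 4 channel genes passed without a filter, in place of 2. Scaling by total counts moved the median of all genes from 0.01 to 0.12 on the log2 scale and turned the sign of no named gene. Of 381 alternatives over 32 genes, 361 kept direction and call, 7 gained a call, 5 lost it and 8 changed sign. All 8 came from leaving out 1 library, over which the log2 fold change ran from -0.56 to 0.062 for CACNA1B, -2.47 to 0.67 for CACNA1G, -0.14 to 0.72 for CACNA1H, -0.16 to 0.44 for CACNA1S and -0.12 to 0.49 for CACNG8. The log2 ratio of L-type to T-type genes ran from -0.78 to 0.13 with a library left out, and the other 4 ratios kept their sign. The cause of these changes was not tested. The 5 losses were all of CACNA2D2. Genes under about 1 CPM rest on few reads, and 3 against 3 libraries cannot give an exact permutation p under 0.1.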
